A study of Homo sapiens with 15 samples.

Results

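The genes described here encode the proteins that copy DNA at the replication fork and rebuild chromatin behind it. They were chosen by symbol: 38 of the 23368 genes in the deposited table carry the listed names, and all 38 were found. They comprise the subunits of DNA polymerases alpha, delta and epsilon with primase, the CMG partners CDC45 and GINS, the fork proteins WDHD1 and RECQL4, the firing kinase CDC7 with DBF4, replication protein A, the Okazaki fragment enzymes with RNase H2, TOP1, and the histone chaperones CAF-1, ASF1, NASP and FACT. RNA of U2OS, a human osteosarcoma cell line that keeps wild-type p53, was sequenced in 15 libraries of 6 groups. Cells were asynchronous, held in a double thymidine block (2 mM, 2 periods of 16 h with 8 h between them; called non-released), or harvested in S phase 4 h after the second block was lifted. Each state received DMSO or 10 µM Nutlin, a small molecule that frees p53 from its inhibitor MDM2, and the prefix of that dose was lost in the labels and is read as micromolar. Synchronised cells got either agent for the last 4 h of the second block, or as that block went on, and kept it until harvest; for asynchronous cells the duration of treatment was not stated. There were 3 DMSO and 3 Nutlin libraries of asynchronous cells, 2 and 2 of non-released cells, and 3 and 2 of S-phase cells. Only 1 cell line is named, and the markers of 1 library, described below, went against its label. Nothing in the labels tells if the replicates came from separate cultures, so p-values here reflect spread among these libraries alone, which may be technical.

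At an origin, the kinase pair CDC7 and DBF4 phosphorylates the MCM ring, and CDC45 and the GINS complex join that ring to form the active CMG helicase. Primase and polymerase alpha lay down short primers, polymerase epsilon extends the leading strand, polymerase delta extends the lagging strand, and FEN1, DNA2, RNase H2 and LIG1 turn Okazaki fragments into continuous DNA. ASF1 hands new H3-H4 histones to CAF-1, which deposits them behind the fork, while FACT opens and reassembles nucleosomes. Many of these genes are known E2F targets whose transcripts peak around the start of S phase, and p53 is known to repress such genes through CDKN1A and the DREAM complex.

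Values are given below as normalised reads, recovered from the deposited log2-scale values and listed in the order of replicate numbers, and differences as log2 units with the standard error of the fit. That fit took 1 spread per gene from all 15 libraries, so a standard error also reflects libraries outside the comparison. A change was called where limma gave an adjusted p under 0.05 over the 14298 genes tested. Assigned reads ranged from 6.05 to 23.38 M per library. All 38 genes passed the filter on low values, and none was at 0 in any library; the lowest value was 101.5 normalised reads. The library labelled DMSO asynchronous replicate 3 went against its label: CDKN1A stood at 17534 normalised reads there, 2773 and 2741 in replicates 1 and 2, and 11607 to 12239 in Nutlin asynchronous cells. That library was also the highest of all 15 for 10 of 10 epithelial and 8 of 8 luminal breast markers, with a summed epithelial level of 40951 against 12550.5 to 17569 elsewhere. Along with DMSO S-phase replicate 2, the shallowest library at 6.05 M reads, it correlated least with its own group (mean r of 0.9753 and 0.9773, against 0.9832 to 0.9966). Counts are therefore given with all 15 libraries and with the 13 that remain without these. Of the bone and mesenchymal markers VIM was abundant, at 27808 normalised reads or more in every library, while COL1A2 was at 8.7 or less. The blood marker CD3E was at 0 in every library.

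The group means of most of these genes formed 1 pattern across the 6 conditions. The mean was highest in DMSO non-released cells for 22 of 38 genes and lowest in Nutlin asynchronous cells for 27. The spread between the highest and lowest group mean was widest for ASF1B at 1.18 log2 units, CHAF1B at 1.09 and PRIM1 at 1.00. It was narrowest for the FACT subunit gene SUPT16H at 0.12 and for POLE4, a small histone-fold subunit of polymerase epsilon, at 0.16. In a small set the highest mean was in asynchronous cells: POLE2, POLE3, POLE4, DBF4, TOP1 and SUPT16H with DMSO, and POLD2 and SSRP1 with Nutlin. For TOP1 this rested on DMSO asynchronous replicate 3, at 2182 normalised reads against 962 and 1269 in replicates 1 and 2. POLE4 and SUPT16H hardly differed between groups.

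**Figure D1:**
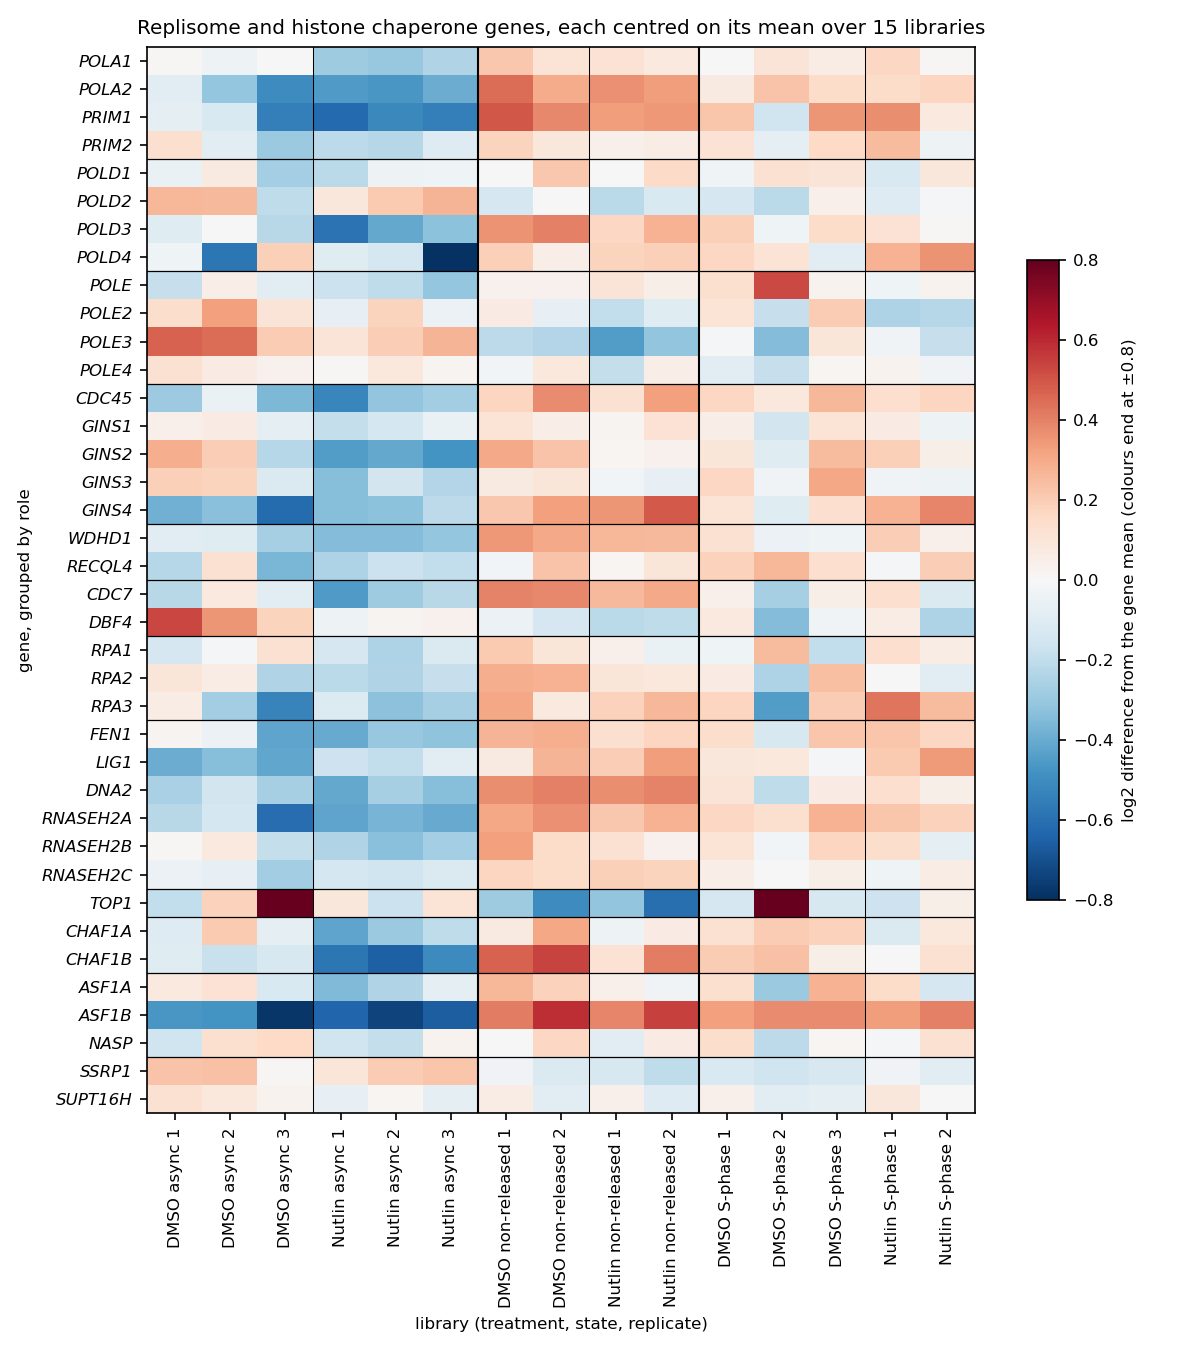
Log2 expression of the 38 genes (rows, grouped by role and separated by lines) in the 15 libraries (columns), each gene centred on its mean over all libraries, with red above and blue below that mean. The asynchronous columns are mostly blue and the non-released columns mostly red, POLD2, POLE3, DBF4 and SSRP1 show the opposite order, and TOP1 is far above its mean in DMSO asynchronous replicate 3 and DMSO S-phase replicate 2.

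Thymidine arrest was compared with asynchronous growth first, because it gave the most calls. In DMSO, 14 genes were higher and 2 lower in non-released cells, where 16.9% of all tested genes were called higher and 17.0% lower. The median difference of the 38 genes was 0.24 log2 units against -0.009 for all tested genes. The genes that rose were ASF1B, GINS4, PRIM1, POLA2, RNASEH2A, CHAF1B, DNA2, LIG1, CDC45, POLD3, WDHD1, CDC7, FEN1 and RNASEH2C, and POLE3 and DBF4 fell. In Nutlin, 18 were higher and 3 lower, against 17.3% and 17.2% of all genes, with a median of 0.322 against 0.003. All 14 genes that rose in DMSO were also called higher in Nutlin, where they made up 77.8% of the 18; the other 4 were CHAF1A, GINS2, POLA1 and RNASEH2B. The DMSO and Nutlin contrasts share no library, but both use the same spread per gene, fitted over all 15 libraries. Of the genes that fell, POLE3 was called in both, DBF4 in DMSO, and POLD2 and SSRP1 in Nutlin. Leaving out each library in turn, 11 of the 16 calls in DMSO and 12 of the 21 in Nutlin were kept; the fewest calls were 11 without DMSO non-released replicate 2, 13 without Nutlin non-released replicate 2 and 14 without Nutlin non-released replicate 1. With 13 libraries the counts were 17 higher and 5 lower in DMSO (23.6% and 24.4% of all genes) and 26 and 4 in Nutlin (25.3% and 24.8%).

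S-phase cells kept part of this difference. In DMSO, 8 genes were higher and 3 lower than in asynchronous cells (14.1% and 13.6% of all genes), with a median of 0.152 against -0.013. In Nutlin 16 were higher and 0 lower (13.4% and 10.6%), with a median of 0.294 against 0.001. Of the 8 that rose in DMSO, 7 also rose in Nutlin, which is 87.5% of the first list and 43.8% of the second. RECQL4 was the exception. The count in Nutlin dropped from 16 to 9 without Nutlin S-phase replicate 1, and in DMSO it lay between 9 and 14 of 38 over the single-library omissions, against 11. When the model was fitted on the DMSO asynchronous and S-phase libraries alone, 3 genes kept the call in DMSO: GINS4, LIG1 and ASF1B. With 13 libraries the counts were 9 higher and 4 lower in DMSO (15.7% and 16.2% of all genes) and 24 and 4 in Nutlin (21.8% and 19.4%).

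Between S-phase and non-released cells, CDC7, DNA2 and WDHD1 fell in DMSO and no gene rose, where 2.89% of all tested genes were called lower and 4.11% higher. The median was -0.116 against -0.011, and 32 of 38 differences were below 0. All 3 calls were lost without DMSO non-released replicate 1 or 2, 1 remained without DMSO S-phase replicate 2, and 2 without DMSO S-phase replicate 1 or 3. In Nutlin limma called none of the 38 (0.832% of all genes lower, 1.6% higher); 1 had an unadjusted p under 0.05, voom also called 0, and the median was -0.018. With 13 libraries 3 genes (WDHD1, DNA2 and CHAF1B) were lower and 1 (POLE3) higher in DMSO (6.34% and 7.98% of all genes), and in Nutlin DNA2 was lower and POLE3 higher (4.51% and 6.33%).

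Of the 8 cell cycle markers listed, 3 (CCNE1, CCNE2 and E2F1) were higher in every non-released library than in every asynchronous one, 4 (CCNB1, CDC20, PLK1 and CCND1) were lower, and CCNA2 overlapped. CCNE2, the cyclin of the G1-to-S transition, ranged from 279.9 to 542 normalised reads in asynchronous libraries, from 1098 to 1278 in non-released ones and from 537 to 870 in S-phase ones. CDC20, an activator of mitotic exit, ranged from 3318 to 5474, from 1786 to 2077 and from 2048 to 3018 in the same order. Between S-phase and asynchronous libraries CCNE1 was higher and CDC20 and CCND1 were lower without overlap, and the other 5 overlapped. The part of the cell cycle state in the differences was not tested. In RNA from whole cultures, a larger share of cells in S phase and more transcript per cell cannot be told apart.

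**Figure D2:**
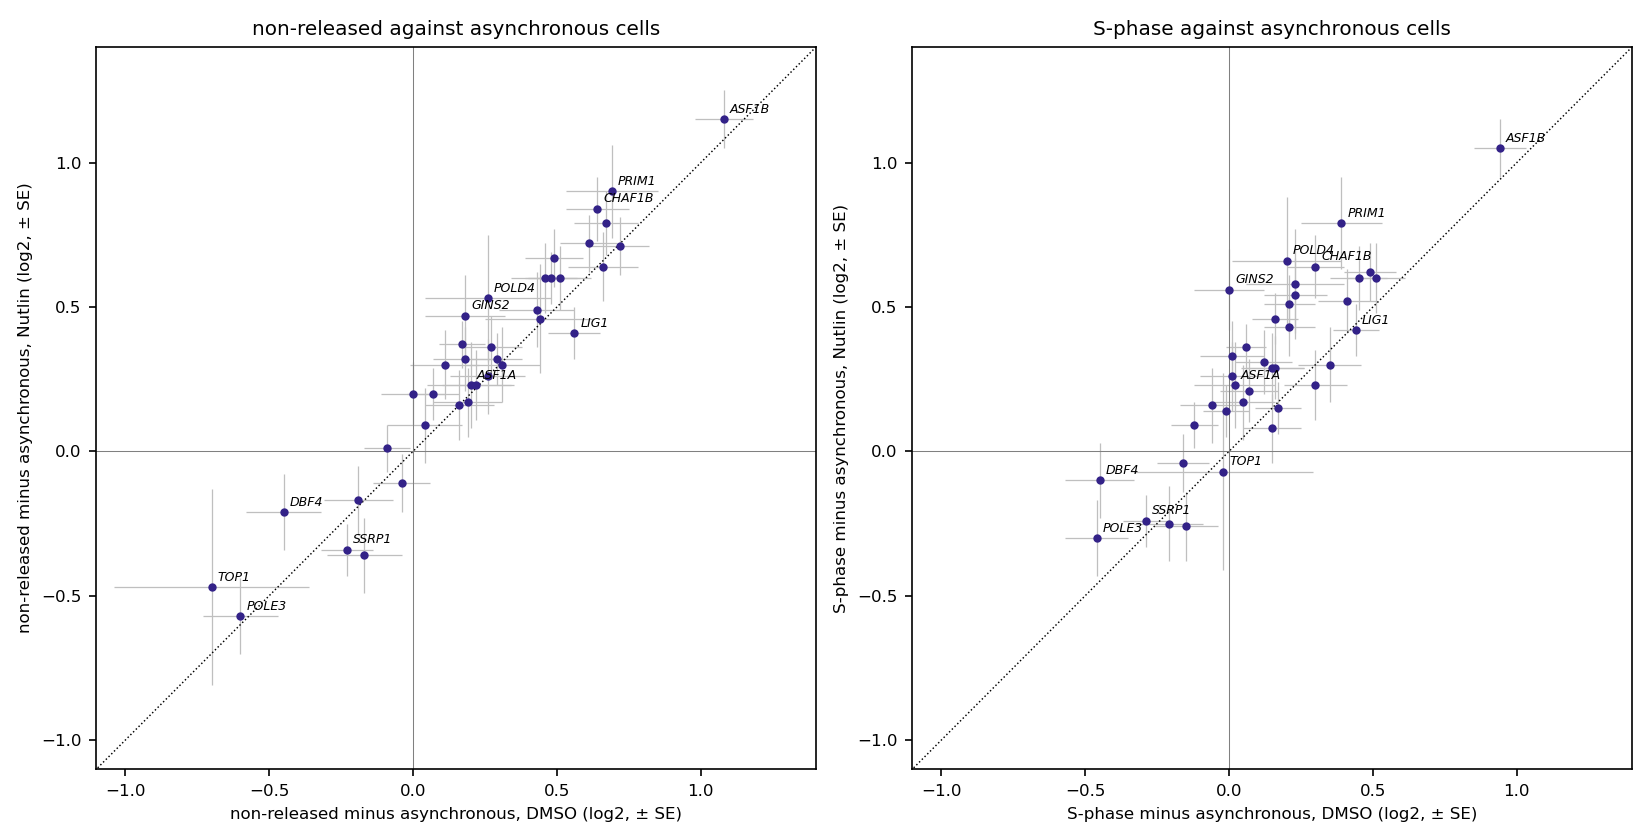
Difference of each of the 38 genes between non-released and asynchronous cells (left) and between S-phase and asynchronous cells (right), with the DMSO value on the x axis and the Nutlin value on the y axis, in log2 units with standard errors; the dotted line marks equal values. ASF1B lies farthest up at 1.08 and 1.15 on the left, POLE3 and TOP1 lie below 0 on both axes there, and GINS2 on the right is at 0.00 in DMSO and 0.56 in Nutlin.

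Nutlin lowered few of these genes past the test, although most differences in asynchronous cells were below 0. In asynchronous cells 33 of 38 were lower with Nutlin, with a median of -0.157 against -0.016 for all genes, and GINS2 and CHAF1B were called lower and none higher. Over all tested genes 0.546% were called lower and 1.91% higher. Every Nutlin library lay below every DMSO library for 11 genes (9.64% of all genes), and above for LIG1 alone (8.49%). Both calls were lost when any 1 of 5 of the 6 asynchronous libraries was left out, the exception being DMSO asynchronous replicate 3, without which 4 genes were lower. Without both libraries that stood apart, 12 genes were lower and 0 higher (2.48% and 3.78% of all genes): GINS2, PRIM1, DBF4, GINS3, POLD3, FEN1, RPA2, RNASEH2B, CHAF1B, POLE3, POLA1 and WDHD1.

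In non-released cells 32 of 38 genes were lower with Nutlin, at a median of -0.092 against -0.019, and limma called none, with 0 at an unadjusted p under 0.05 and 0 by voom. Of all tested genes 0.874% were called higher and 0.042% lower. The groups did not overlap for 19 genes that were lower (25.7% of all genes) and 3 that were higher (20.0%). With 13 libraries the calls were still 0 (2.81% and 0.423% of all genes higher and lower). The largest differences were those of GINS2 (-0.24 ± 0.15) and CHAF1B (-0.24 ± 0.12).

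In S-phase cells 15 of 38 were lower with Nutlin and limma called none, with 3 at an unadjusted p under 0.05 and 0 by voom; 1.84% of all genes were called higher and 0.161% lower. The median was 0.013 against -0.006, and -0.012 after quantile normalisation. The groups did not overlap for 5 genes that were higher (GINS4, LIG1, POLD4, RPA3 and SSRP1; 13.8% of all genes) and 3 that were lower (CHAF1A, GINS3 and POLE2; 12.0%). With 13 libraries 23 differences were below 0 and 1 gene, POLE2, was called lower and 0 higher (0.578% and 3.4% of all genes). RPA3 at 0.36 ± 0.19 and TOP1 at -0.35 ± 0.34 had the largest differences.

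The Nutlin response was also compared between states. S-phase cells kept the agent for 4 h after the block was lifted, and its duration in asynchronous cells was not stated. State and duration of treatment therefore cannot be told apart. No gene of the 38, and 0.0% of all tested genes, passed the test in any of the 3 comparisons of responses; limma gave 0, 4 and 0 of the 38 at an unadjusted p under 0.05, and voom called 0 in each. The S-phase response exceeded the asynchronous one for 30 of 38 genes, with a median of 0.149 against 0.016 for all genes. With 13 libraries again none of the 38 passed, against 0.0211% of all genes in the comparison of non-released with asynchronous responses and 0.0% in the others. GINS2 (0.56 ± 0.18) and POLD4 (0.46 ± 0.29), the smallest polymerase delta subunit, were farthest apart. Between non-released and asynchronous cells the largest were the same: GINS2 at 0.29 ± 0.19 and POLD4 at 0.26 ± 0.31. Between S-phase and non-released cells they were RPA3 at 0.33 ± 0.28 and TOP1 at -0.28 ± 0.51. These contrasts share groups with one another, so they are given side by side only.

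**Figure D3:**
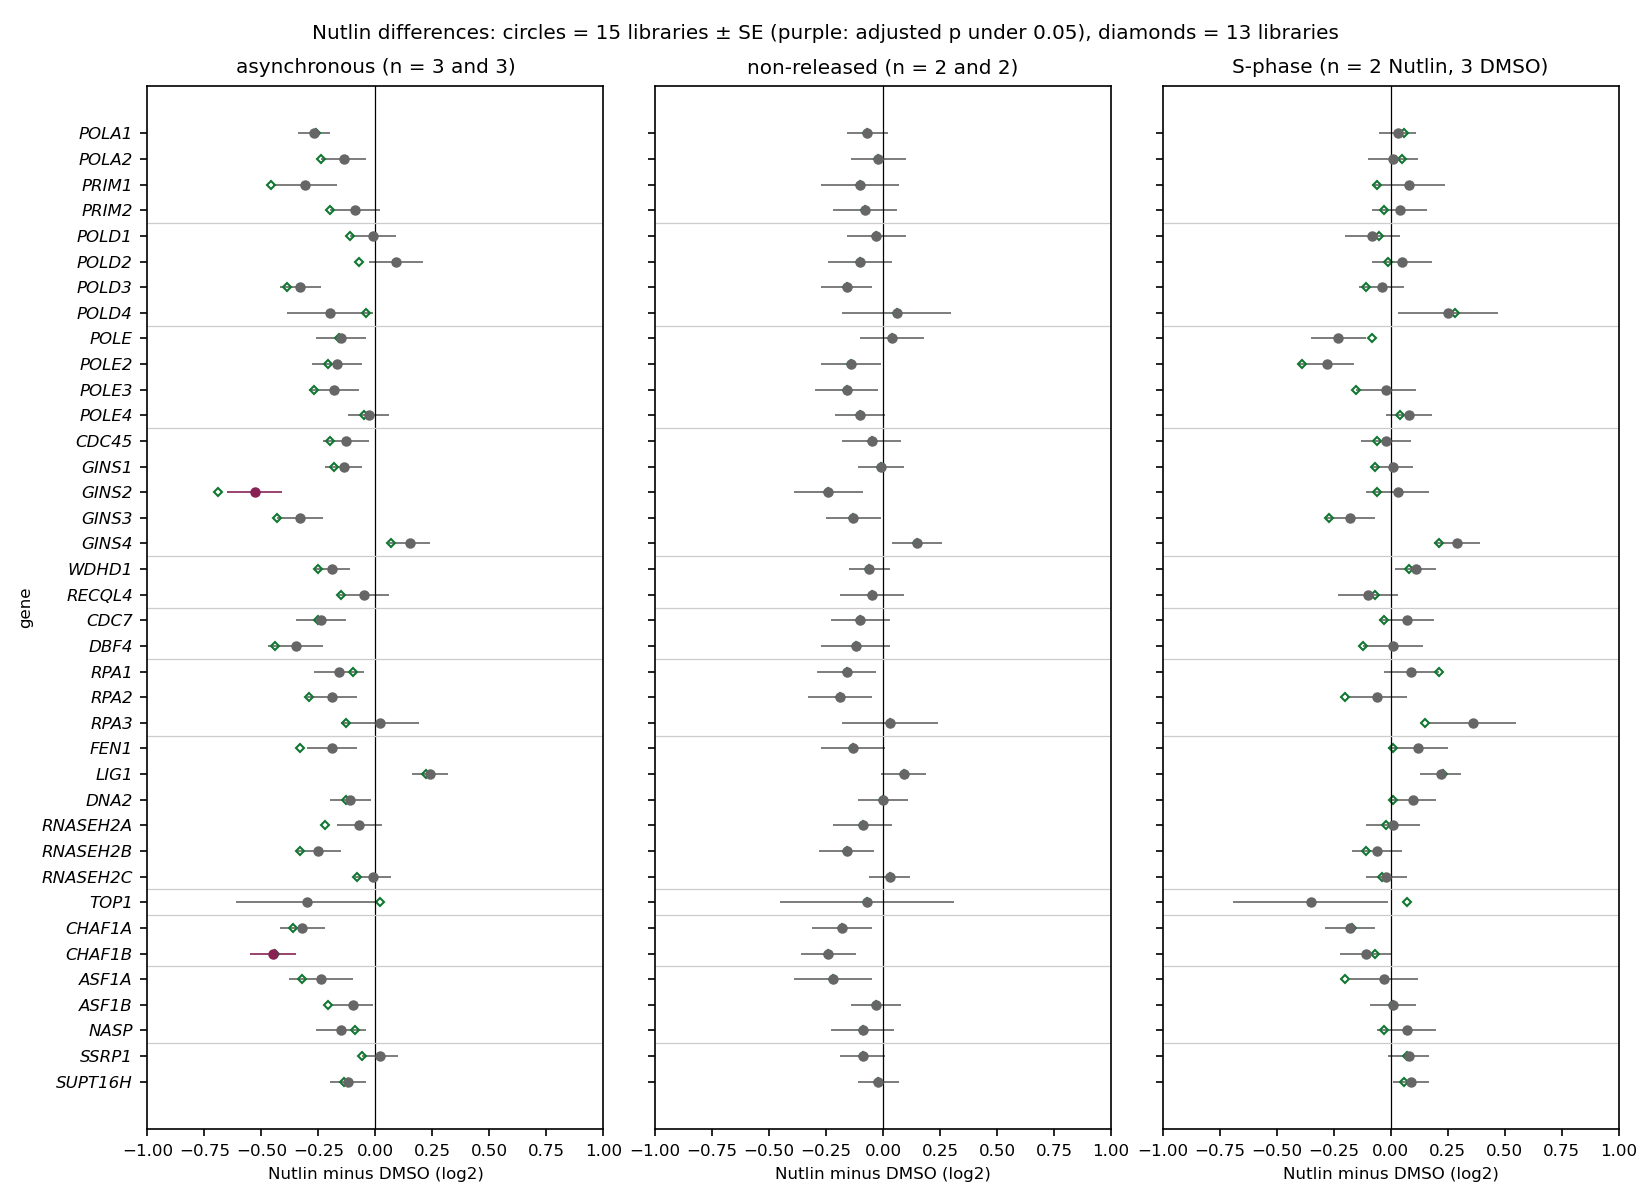
Nutlin minus DMSO difference (x axis, log2) of each gene (rows), with a panel each for asynchronous cells, non-released cells and S-phase cells, shown as filled circles with the standard error over 15 libraries and as open diamonds without the libraries labelled DMSO asynchronous replicate 3 and DMSO S-phase replicate 2. Most circles in the left panel lie below 0, GINS2 and CHAF1B are the purple ones, LIG1 and GINS4 lie above 0 in all 3 panels, and the TOP1 diamond in the right panel is on the other side of 0 from its circle.

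Of the 4 polymerase alpha and primase genes, POLA2 and PRIM1 rose with arrest in both treatments. POLA2 encodes the regulatory subunit of polymerase alpha, POLA1 its catalytic subunit, PRIM1 the catalytic primase subunit and PRIM2 the large one. POLA2 had 812, 689 and 597 normalised reads in the DMSO asynchronous libraries and 618, 614 and 646 in the Nutlin asynchronous ones. For POLA2 in non-released cells they were 1205 and 1078 with DMSO and 1137 and 1111.5 with Nutlin. S-phase POLA2 reads came to 914.5, 1024 and 969 with DMSO and 969 and 985 with Nutlin. Every non-released and S-phase library was above every asynchronous library. POLA2 rose by 0.67 ± 0.11 (adjusted p = 0.000427) in non-released DMSO cells and by 0.79 ± 0.11 (adjusted p = 0.000136) in the Nutlin ones. In S-phase cells it rose by 0.45 ± 0.10 (adjusted p = 0.0044) in DMSO and 0.60 ± 0.11 (adjusted p = 0.00165) in Nutlin. PRIM1 had 1219, 1177 and 864 normalised reads in the DMSO asynchronous libraries and 814, 882 and 864 in the Nutlin asynchronous ones. For PRIM1 in non-released cells they were 1835 and 1696 with DMSO and 1634.5 and 1654 with Nutlin. S-phase PRIM1 reads came to 1508, 1146 and 1662.5 with DMSO and 1678 and 1361 with Nutlin. DMSO asynchronous replicate 3 sat with the Nutlin asynchronous libraries, below both other DMSO libraries. PRIM1 rose by 0.69 ± 0.16 (adjusted p = 0.00453) with arrest in DMSO and by 0.90 ± 0.16 (adjusted p = 0.000775) in Nutlin. The rise of POLA1 was called in Nutlin (0.37 ± 0.08 in non-released and 0.36 ± 0.08 in S-phase cells, the second lost without Nutlin S-phase replicate 1) and not in DMSO (0.17 ± 0.08 and 0.06 ± 0.07). PRIM2 had no call with all 15 libraries, at 0.22 ± 0.12 and 0.23 ± 0.12 in non-released cells; with 13 the Nutlin difference was called (0.23 ± 0.09, adjusted p = 0.0462).

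Polymerase delta subunits went in different directions. POLD1 is the catalytic subunit, POLD2 and POLD3 are accessory subunits, and POLD4 is the smallest. POLD3 rose in non-released cells by 0.49 ± 0.10 (adjusted p = 0.00262) in DMSO and 0.67 ± 0.10 (adjusted p = 0.000343) in Nutlin, and in S-phase cells by 0.51 ± 0.10 (adjusted p = 0.00351) in Nutlin. POLD2 had 3523, 3495 and 2523 normalised reads in the DMSO asynchronous libraries and 3114, 3387 and 3529 in the Nutlin asynchronous ones. For POLD2 in non-released cells they were 2652 and 2913 with DMSO and 2501 and 2672 with Nutlin. S-phase POLD2 reads came to 2648, 2506 and 3006.5 with DMSO and 2715 and 2897.5 with Nutlin. The non-released and S-phase libraries all lay below the Nutlin asynchronous ones, while in DMSO replicate 3 of the asynchronous cells was as low as the arrested ones. POLD2 fell by 0.36 ± 0.13 in Nutlin non-released cells (adjusted p = 0.0463), a call that was lost without any 1 of the 5 libraries and after quantile normalisation (range of adjusted p over alternatives 0.0012 to 0.268). With 13 libraries it was called lower with arrest in DMSO too (-0.33 ± 0.09, adjusted p = 0.00571). POLD1 had no call in any comparison, with 0.19 ± 0.12 and 0.17 ± 0.12 for arrest. POLD4 was called in Nutlin S-phase cells (0.66 ± 0.22, adjusted p = 0.0406), and the call was lost without Nutlin asynchronous replicate 3 or either S-phase replicate (range 0.0109 to 0.169). In asynchronous cells its reads differed more between replicates than between treatments, from 101.5 in Nutlin replicate 3 to 249 in DMSO replicate 3.

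Of the polymerase epsilon genes POLE3 fell with arrest. POLE is the catalytic subunit, POLE2 the second subunit of the core, and POLE3 and POLE4 form a histone-fold pair that binds H3-H4. POLE3 had 4741, 4647 and 3911.5 normalised reads in the DMSO asynchronous libraries and 3647, 3901 and 4103 in the Nutlin asynchronous ones. For POLE3 in non-released cells they were 2933 and 2872 with DMSO and 2482 and 2719.9 with Nutlin. S-phase POLE3 reads came to 3353, 2654.5 and 3637 with DMSO and 3325 and 2981 with Nutlin. All asynchronous values were above all others, and the non-released ones were lower than those of S-phase cells except for DMSO S-phase replicate 2. POLE3 fell with arrest, to a difference of -0.60 ± 0.13 in DMSO (adjusted p = 0.00268) and -0.57 ± 0.13 in Nutlin (adjusted p = 0.00364), the latter lost without Nutlin non-released replicate 1 (range 3.13e-05 to 0.0505). S-phase cells in DMSO were at -0.46 ± 0.11 (adjusted p = 0.00856). Its partner POLE4 had no call, with -0.04 ± 0.10 and -0.11 ± 0.10. POLE was at 0.11 ± 0.12 and 0.30 ± 0.12, and POLE2 at -0.19 ± 0.12 and -0.17 ± 0.12, without a call in either. With 13 libraries POLE was called higher with arrest in Nutlin (0.30 ± 0.08, adjusted p = 0.00517).

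Among the CMG partners, GINS4 and CDC45 rose with arrest in both treatments, GINS2 was called in Nutlin, and GINS1 and GINS3 had no call with all 15 libraries. CDC45 and the GINS1 to GINS4 subunits bind the MCM ring and switch on its helicase activity. GINS4 had 1357, 1404 and 1149.9 normalised reads in the DMSO asynchronous libraries and 1402, 1413 and 1541 in the Nutlin asynchronous ones. For GINS4 in non-released cells they were 2086 and 2264 with DMSO and 2304 and 2537 with Nutlin. S-phase GINS4 reads came to 1929.9, 1667 and 1969 with DMSO and 2176 and 2362 with Nutlin. The arrested and S-phase libraries stood above the asynchronous ones without overlap, and in each state GINS4 was higher with Nutlin than with DMSO on average. GINS4 rose by 0.72 ± 0.10 (adjusted p = 0.000223) in non-released DMSO cells and 0.71 ± 0.10 (adjusted p = 0.000228) in Nutlin, and by 0.49 ± 0.09 (adjusted p = 0.00221) and 0.62 ± 0.10 (adjusted p = 0.00108) in S-phase cells. CDC45 rose by 0.51 ± 0.11 (adjusted p = 0.00412) and 0.60 ± 0.11 (adjusted p = 0.0015) with arrest; the DMSO call was lost without DMSO non-released replicate 2 (range 0.000733 to 0.0737).

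GINS2 had the largest Nutlin difference of the 38 in asynchronous cells. GINS2 had 1332.5, 1249 and 914 normalised reads in the DMSO asynchronous libraries and 777, 802 and 761 in the Nutlin asynchronous ones. For GINS2 in non-released cells they were 1347 and 1278 with DMSO and 1094 and 1111 with Nutlin. S-phase GINS2 reads came to 1159, 1006 and 1300.5 with DMSO and 1241.5 and 1117 with Nutlin. The Nutlin asynchronous libraries were the 3 lowest of 15 and close to one another, while DMSO replicate 3 lay between them and the other DMSO libraries. GINS2 fell by 0.53 ± 0.12 with Nutlin there (adjusted p = 0.0351, range over alternatives 3.32e-05 to 0.143). In Nutlin it rose from asynchronous to non-released cells by 0.47 ± 0.14 (adjusted p = 0.0165) and to S-phase cells by 0.56 ± 0.14 (adjusted p = 0.00934). The same differences in DMSO were 0.18 ± 0.14 and 0.00 ± 0.12 and were not called. The first Nutlin call was lost without either non-released replicate (range 0.000149 to 0.0929) and the second without S-phase replicate 1 (range 6.02e-05 to 0.0888). GINS1 and GINS3 had Nutlin differences in asynchronous cells of -0.14 ± 0.08 and -0.33 ± 0.10, not called. With 13 libraries GINS3 was called lower there (-0.43 ± 0.08, adjusted p = 0.003), and with arrest in Nutlin both were called higher, GINS1 by 0.20 ± 0.07 (adjusted p = 0.0279) and GINS3 by 0.20 ± 0.08 (adjusted p = 0.0429).

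WDHD1, the human form of Ctf4 that links the helicase to polymerase alpha, rose with arrest. WDHD1 had 2523, 2497 and 2215 normalised reads in the DMSO asynchronous libraries and 2089, 2092 and 2145 in the Nutlin asynchronous ones. For WDHD1 in non-released cells they were 3424 and 3316 with DMSO and 3223 and 3219 with Nutlin. S-phase WDHD1 reads came to 2914, 2594 and 2618 with DMSO and 3080.5 and 2759 with Nutlin. Non-released libraries were the 4 highest, and Nutlin asynchronous libraries the 3 lowest. WDHD1 rose by 0.48 ± 0.09 (adjusted p = 0.000968) in DMSO and 0.60 ± 0.09 (adjusted p = 0.000198) in Nutlin. From non-released to S-phase DMSO cells it fell by 0.31 ± 0.09 (adjusted p = 0.043, range 0.00519 to 0.28). RECQL4, a helicase needed for CMG assembly, was called higher in S-phase than in asynchronous DMSO cells (0.35 ± 0.11, adjusted p = 0.0339). That call was lost without DMSO asynchronous replicate 1 or 3 or DMSO S-phase replicate 1 or 2, without both libraries that stood apart and with the compared groups only (range 0.00639 to 0.158).

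The firing kinase CDC7 and its activator DBF4 moved in opposite directions with arrest. CDC7 had 779, 971 and 859.6 normalised reads in the DMSO asynchronous libraries and 653.5, 743 and 779 in the Nutlin asynchronous ones. For CDC7 in non-released cells they were 1221 and 1210.0 with DMSO and 1108.5 and 1145 with Nutlin. S-phase CDC7 reads came to 945, 752 and 945.5 with DMSO and 1012 and 840.1 with Nutlin. CDC7 was highest in the 4 non-released libraries and lay lower again in S phase, where most values were within the asynchronous range. DBF4 had 2819, 2475.5 and 2182 normalised reads in the DMSO asynchronous libraries and 1867, 1952 and 1976 in the Nutlin asynchronous ones. For DBF4 in non-released cells they were 1861 and 1747 with DMSO and 1649.7 and 1666 with Nutlin. S-phase DBF4 reads came to 2039, 1501 and 1884 with DMSO and 2012 and 1611 with Nutlin. DBF4 was highest in the 3 DMSO asynchronous libraries, and the Nutlin asynchronous values were close to those of synchronised cells. In DMSO, arrest raised CDC7 by 0.46 ± 0.12 (adjusted p = 0.0108) and lowered DBF4 by 0.45 ± 0.13 (adjusted p = 0.0192). CDC7 lost that call without either DMSO non-released replicate (range 0.00363 to 0.068), and DBF4 without these or DMSO asynchronous replicate 1 and after quantile normalisation (range 0.000477 to 0.134). In Nutlin CDC7 rose by 0.60 ± 0.12 (adjusted p = 0.00225) and DBF4 was at -0.21 ± 0.13, not called. From non-released to S-phase DMSO cells CDC7 fell by 0.45 ± 0.12 (adjusted p = 0.0425), with a range of 0.0279 to 0.238 and without the call in the 13 libraries. DBF4 was also lower in S-phase than in asynchronous DMSO cells (-0.45 ± 0.12, adjusted p = 0.0126); it was lower in all alternatives run, but the call was lost without DMSO asynchronous replicate 1 and with the compared groups only (range 0.00543 to 0.0952).

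Replication protein A, the trimer that coats single-stranded DNA, showed 1 call with all 15 libraries and more with 13. RPA3, its smallest subunit, was higher in Nutlin S-phase than in Nutlin asynchronous cells by 0.58 ± 0.19 (adjusted p = 0.0406). RPA3 had 1426, 1118 and 926 normalised reads in the DMSO asynchronous libraries and 1260.2, 1078 and 1124 in the Nutlin asynchronous ones. For RPA3 in non-released cells they were 1708 and 1444 with DMSO and 1562 and 1649 with Nutlin. S-phase RPA3 reads came to 1542, 987 and 1583 with DMSO and 1855 and 1639.8 with Nutlin. The value in DMSO S-phase replicate 2 was far below the other S-phase libraries, and DMSO asynchronous replicate 3 was the lowest of 15. The call was lost without any 1 of the 5 libraries compared (range 0.000492 to 0.216). Without both libraries that stood apart, the Nutlin difference of RPA3 in S phase went from 0.36 to 0.15. RPA1, the large subunit, and RPA2, the middle one, differed by 0.16 ± 0.12 and 0.31 ± 0.13 between non-released and asynchronous DMSO cells and by 0.16 ± 0.12 and 0.30 ± 0.13 in Nutlin, with no call in the 15 libraries. With 13 libraries all 3 subunits were called higher with arrest in DMSO: RPA1 by 0.22 ± 0.09 (adjusted p = 0.044), RPA2 by 0.20 ± 0.08 (adjusted p = 0.0389) and RPA3 by 0.30 ± 0.11 (adjusted p = 0.0408). In Nutlin RPA2 and RPA3 were called higher with arrest, by 0.30 ± 0.07 (adjusted p = 0.00231) and 0.46 ± 0.10 (adjusted p = 0.0022). RPA1 was called higher in Nutlin S-phase than in Nutlin asynchronous cells (0.26 ± 0.08, adjusted p = 0.0149), and RPA2 was lower with Nutlin in asynchronous cells (-0.29 ± 0.07, adjusted p = 0.0206).

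All 6 genes of Okazaki fragment maturation and RNase H2 rose in non-released cells of at least 1 treatment: FEN1, LIG1, DNA2, RNASEH2A and RNASEH2C were called in both treatments and RNASEH2B in Nutlin. FEN1 and DNA2 are the flap nucleases, LIG1 seals the nick, and RNASEH2A is the catalytic subunit of RNase H2, with RNASEH2B and RNASEH2C as its partners. LIG1 had 1359, 1417 and 1344 normalised reads in the DMSO asynchronous libraries and 1608, 1570.0 and 1704 in the Nutlin asynchronous ones. For LIG1 in non-released cells they were 1902 and 2197 with DMSO and 2078 and 2294 with Nutlin. S-phase LIG1 reads came to 1927, 1921 and 1792 with DMSO and 2098 and 2299 with Nutlin. Every Nutlin asynchronous library was above every DMSO one, and all synchronised libraries were above both. LIG1 rose with arrest by 0.56 ± 0.09 (adjusted p = 0.000374) in DMSO and 0.41 ± 0.09 (adjusted p = 0.00275) in Nutlin, the second of which was lost without Nutlin non-released replicate 2 (range 0.000407 to 0.0506). Its Nutlin difference in asynchronous cells was 0.24 ± 0.08, the only one of the 38 with Nutlin libraries all higher, and was not called (adjusted p = 0.176).

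DNA2 had 1427, 1548 and 1419 normalised reads in the DMSO asynchronous libraries and 1283, 1424 and 1350.2 in the Nutlin asynchronous ones. For DNA2 in non-released cells they were 2239.5 and 2292 with DMSO and 2241 and 2288 with Nutlin. S-phase DNA2 reads came to 1853, 1485 and 1806 with DMSO and 1899 and 1778.5 with Nutlin. DNA2 was tight within the arrested cells, with all 4 libraries above every other one. DNA2 rose by 0.61 ± 0.10 (adjusted p = 0.000383) in DMSO and 0.72 ± 0.10 (adjusted p = 0.000121) in Nutlin, and was lower in S-phase than in non-released DMSO cells by 0.40 ± 0.10 (adjusted p = 0.0242, range 0.0067 to 0.193). RNASEH2A had 695, 739 and 519 normalised reads in the DMSO asynchronous libraries and 599, 621 and 607 in the Nutlin asynchronous ones. For RNASEH2A in non-released cells they were 1030.2 and 1073 with DMSO and 960.1 and 1007 with Nutlin. S-phase RNASEH2A reads came to 925, 902.5 and 1004 with DMSO and 966 and 940.0 with Nutlin. Again the synchronised libraries were all above the asynchronous ones, of which DMSO replicate 3 was the lowest. RNASEH2A rose by 0.66 ± 0.12 (adjusted p = 0.000819) and 0.64 ± 0.12 (adjusted p = 0.000986) with arrest, and by 0.51 ± 0.10 (adjusted p = 0.00328) and 0.60 ± 0.12 (adjusted p = 0.0026) in S-phase cells. FEN1 rose by 0.43 ± 0.13 and 0.49 ± 0.13 and RNASEH2C by 0.29 ± 0.09 and 0.32 ± 0.09 with arrest, and each of these 4 calls was lost without either non-released replicate. RNASEH2B was at 0.36 ± 0.11 in Nutlin, lost without either non-released replicate or Nutlin asynchronous replicate 2, and at 0.27 ± 0.11 in DMSO.

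TOP1, the topoisomerase that relieves supercoils ahead of the fork, was lowest in non-released cells and highest in 2 single libraries. TOP1 had 962, 1269 and 2182 normalised reads in the DMSO asynchronous libraries and 1188, 979.5 and 1201 in the Nutlin asynchronous ones. For TOP1 in non-released cells they were 901.5 and 768 with DMSO and 879 and 711 with Nutlin. S-phase TOP1 reads came to 1006, 2498 and 1013 with DMSO and 986 and 1151 with Nutlin. The library labelled DMSO asynchronous replicate 3 and DMSO S-phase replicate 2 were the 2 highest of the 15, and the 4 non-released libraries were the 4 lowest. With them, the Nutlin difference in S phase was -0.35 ± 0.34; without them, or without DMSO S-phase replicate 2 alone, it was 0.07. In non-released cells, which neither library belongs to, TOP1 was at -0.07 ± 0.38 with Nutlin. With 13 libraries TOP1 was at -0.07 ± 0.14 there, because the standard error is fitted over all libraries. Its difference between non-released and asynchronous cells was -0.70 ± 0.34 in DMSO and -0.47 ± 0.34 in Nutlin, and neither was called with all 15 libraries. With 13 libraries TOP1 was called lower with arrest in both, at -0.39 ± 0.14 (adjusted p = 0.0322) in DMSO and -0.47 ± 0.13 (adjusted p = 0.00655) in Nutlin.

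CAF-1, which loads H3-H4 onto newly copied DNA, had calls in both of its subunits listed here, CHAF1B and CHAF1A. CHAF1B had 285.5, 267 and 277 normalised reads in the DMSO asynchronous libraries and 189, 178 and 201 in the Nutlin asynchronous ones. For CHAF1B in non-released cells they were 448 and 473.5 with DMSO and 339 and 429 with Nutlin. S-phase CHAF1B reads came to 363, 373 and 321 with DMSO and 307 and 340.2 with Nutlin. The 3 Nutlin asynchronous libraries were the lowest of all, the 3 DMSO asynchronous libraries were close to one another and came next, and the synchronised libraries were above both. With Nutlin in asynchronous cells CHAF1B fell by 0.45 ± 0.10 (adjusted p = 0.0241, range over alternatives 0.0172 to 0.128). Arrest raised CHAF1B by 0.64 ± 0.11 (adjusted p = 0.000604) in DMSO and 0.84 ± 0.11 (adjusted p = 8.76e-05) in Nutlin. S-phase cells were higher by 0.64 ± 0.11 (adjusted p = 0.00115) in Nutlin and by 0.30 ± 0.10 (adjusted p = 0.0347) in DMSO; the DMSO call was lost without any 1 of 5 of the 6 libraries compared, DMSO S-phase replicate 3 being the exception, and in the 13 libraries (range 0.0248 to 0.139). CHAF1A, the large subunit, went the same way by smaller amounts: -0.32 ± 0.10 with Nutlin in asynchronous cells, not called, 0.18 ± 0.11 with arrest in DMSO, not called, and 0.32 ± 0.11 (adjusted p = 0.0439) in Nutlin. The last was lost without either non-released replicate or Nutlin asynchronous replicate 1 or 2 (range 0.00586 to 0.235).

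The ASF1 paralogs, which both carry H3-H4 dimers, differed in their response to cell state. ASF1B had 707, 699 and 557 normalised reads in the DMSO asynchronous libraries and 622, 574 and 610.0 in the Nutlin asynchronous ones. For ASF1B in non-released cells they were 1344 and 1532 with DMSO and 1324 and 1484 with Nutlin. S-phase ASF1B reads came to 1267, 1310.0 and 1312 with DMSO and 1269 and 1335 with Nutlin. All 9 synchronised libraries were well above all 6 asynchronous ones, with no overlap. The largest SD within a group was 0.18 log2 units, in DMSO asynchronous cells, where replicate 3 was the lowest. ASF1A had 762.5, 785 and 657 normalised reads in the DMSO asynchronous libraries and 553, 602 and 684 in the Nutlin asynchronous ones. For ASF1A in non-released cells they were 878 and 825 with DMSO and 744 and 706 with Nutlin. S-phase ASF1A reads came to 793, 577 and 887 with DMSO and 804 and 651 with Nutlin. For ASF1A the synchronised and asynchronous ranges overlapped. ASF1B rose by 1.08 ± 0.10 (adjusted p = 1.46e-05) with arrest in DMSO, a 2.11-fold difference, and by 1.15 ± 0.10 (adjusted p = 9.95e-06) in Nutlin, a 2.22-fold one. In S-phase cells the rise was 0.94 ± 0.09 (adjusted p = 3.48e-05) in DMSO and 1.05 ± 0.10 (adjusted p = 3.69e-05) in Nutlin. ASF1B kept all 4 calls in every alternative and omission. ASF1A was at 0.20 ± 0.15 and 0.23 ± 0.15 with arrest and at 0.02 ± 0.14 and 0.23 ± 0.15 in S phase, none called; the difference between the paralogs was not itself tested. With Nutlin in asynchronous cells ASF1A was at -0.24 ± 0.14 and ASF1B at -0.10 ± 0.09, again without a call. NASP, the histone reservoir chaperone, had no call in any comparison, with 0.04 ± 0.13 and 0.09 ± 0.13 for arrest.

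**Figure D4:**
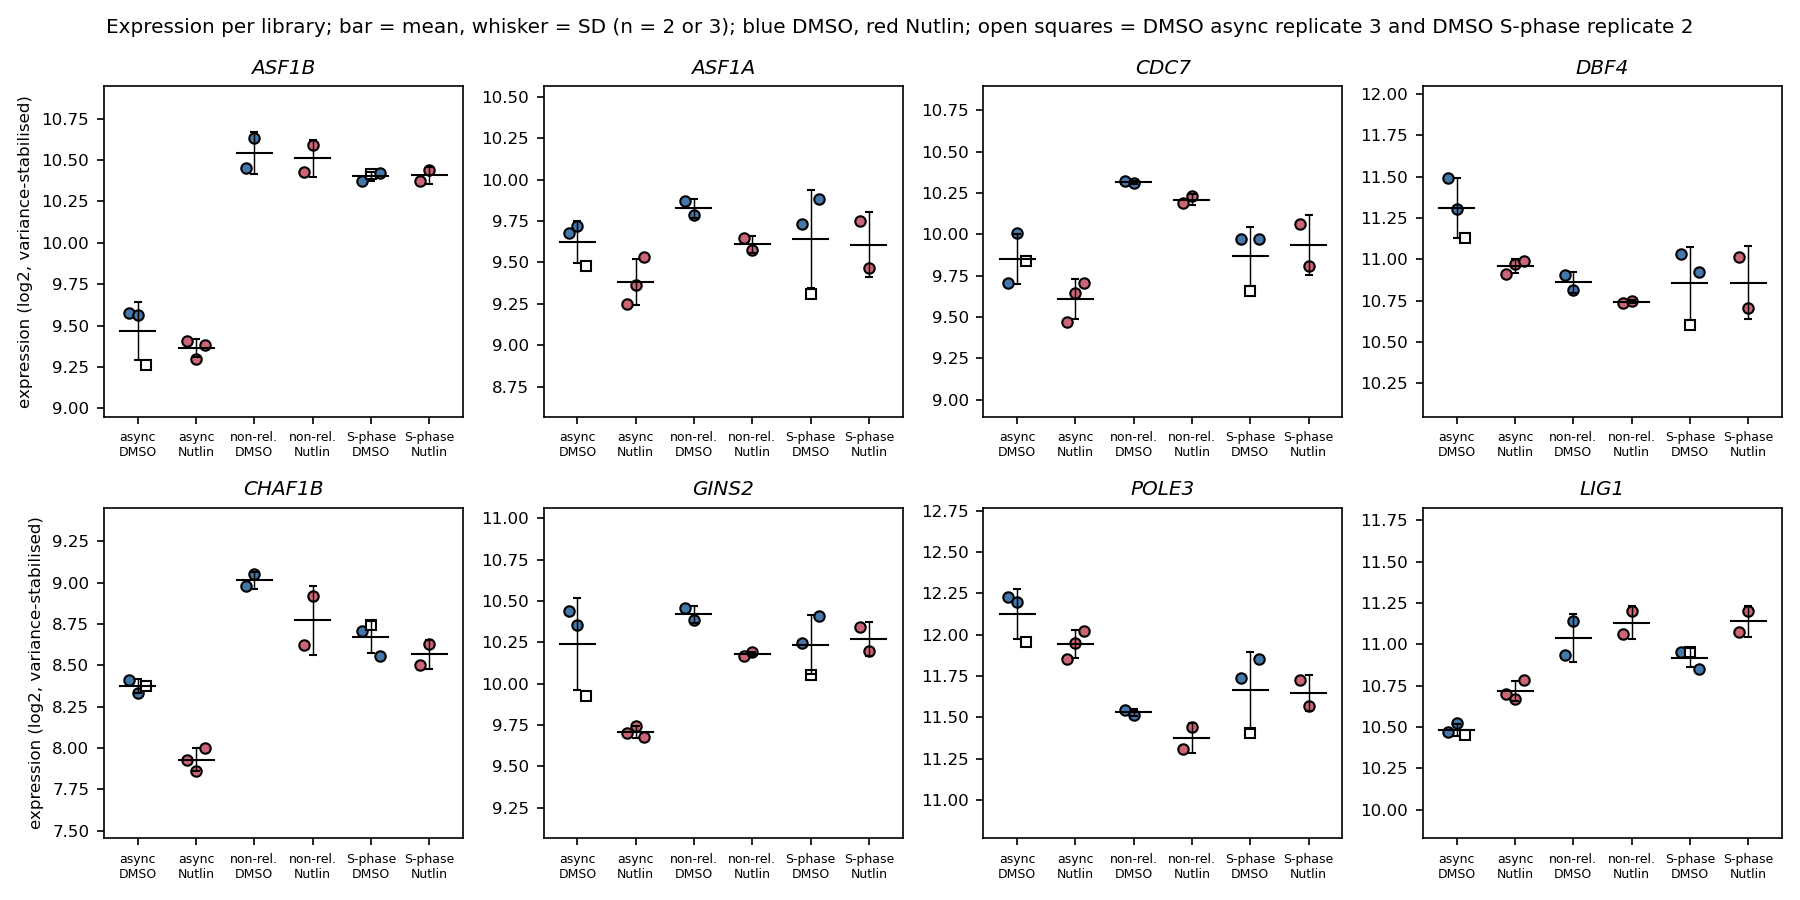
Expression of 8 genes (panels; y axis in log2 units, 2 units tall in each) in every library of the 6 groups (x axis), with blue for DMSO, red for Nutlin, open squares for DMSO asynchronous replicate 3 and DMSO S-phase replicate 2, bars for the group mean and whiskers for the SD. ASF1B steps up by about 1 unit between asynchronous and synchronised cells while ASF1A does not, CDC7 is highest and DBF4 low in non-released cells, and the Nutlin asynchronous values of CHAF1B and GINS2 are the lowest of their panels.

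FACT, the dimer of SSRP1 and SUPT16H, fell or had no call. SSRP1 had 7950.5, 7972 and 6801 normalised reads in the DMSO asynchronous libraries and 7254, 7805 and 7910.2 in the Nutlin asynchronous ones. For SSRP1 in non-released cells they were 6641 and 6242.5 with DMSO and 6178 and 5876 with Nutlin. S-phase SSRP1 reads came to 6221, 6063 and 6181 with DMSO and 6625 and 6358 with Nutlin. The synchronised libraries were all below the asynchronous ones. SSRP1 fell by 0.34 ± 0.09 with arrest in Nutlin (adjusted p = 0.00907), but was at -0.04 and not called after quantile normalisation, and lost the call without Nutlin non-released replicate 2 (range 0.000664 to 0.707). In S-phase DMSO cells it fell by 0.29 ± 0.08 (adjusted p = 0.0149), a call lost without DMSO asynchronous replicate 2, after quantile normalisation and with the compared groups only (range 0.00223 to 0.136). With 13 libraries it was also called lower with arrest in DMSO (-0.30 ± 0.07, adjusted p = 0.00319). SUPT16H had no call, at -0.09 ± 0.08 and 0.01 ± 0.08 with arrest.

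The start regions of these genes were searched for 4 motifs, on both strands. RefSeq start windows (GRCh38.p14; 250 bases before and 50 after the start) were at hand for 32 of the 38 genes, in 41 windows. The sequences below show the bases before the start of 5 genes. ASF1B, CHAF1B and POLA2 have the smallest p among the genes with a window in the arrest comparison in Nutlin. GINS2, the other gene called with Nutlin, and ASF1A, the paralog of ASF1B, were both chosen after their values were seen. They are printed 5′ to 3′ along the gene, with the motif letters found in capitals. The positions are chr19:14136590-14136839, reverse strand (ASF1B), chr21:36385142-36385391, forward strand (CHAF1B), chr11:65261712-65261961, forward strand (POLA2), chr16:85688955-85689204, reverse strand (GINS2) and chr6:118893902-118894151, forward strand (ASF1A).
ASF1B: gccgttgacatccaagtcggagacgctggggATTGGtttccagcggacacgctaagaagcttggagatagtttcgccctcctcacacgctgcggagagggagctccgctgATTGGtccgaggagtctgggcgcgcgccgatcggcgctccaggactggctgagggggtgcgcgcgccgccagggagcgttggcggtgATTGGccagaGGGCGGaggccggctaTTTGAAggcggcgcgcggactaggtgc
CHAF1B: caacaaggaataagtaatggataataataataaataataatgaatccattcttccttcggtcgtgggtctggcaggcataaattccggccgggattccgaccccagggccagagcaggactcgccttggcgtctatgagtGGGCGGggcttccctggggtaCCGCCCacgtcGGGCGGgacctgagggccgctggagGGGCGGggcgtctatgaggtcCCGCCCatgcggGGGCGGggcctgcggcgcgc
POLA2: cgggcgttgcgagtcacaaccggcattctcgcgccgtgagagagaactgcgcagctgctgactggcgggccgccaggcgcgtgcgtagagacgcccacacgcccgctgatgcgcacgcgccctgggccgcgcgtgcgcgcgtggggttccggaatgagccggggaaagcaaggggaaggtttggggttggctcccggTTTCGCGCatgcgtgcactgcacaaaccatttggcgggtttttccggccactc
GINS2: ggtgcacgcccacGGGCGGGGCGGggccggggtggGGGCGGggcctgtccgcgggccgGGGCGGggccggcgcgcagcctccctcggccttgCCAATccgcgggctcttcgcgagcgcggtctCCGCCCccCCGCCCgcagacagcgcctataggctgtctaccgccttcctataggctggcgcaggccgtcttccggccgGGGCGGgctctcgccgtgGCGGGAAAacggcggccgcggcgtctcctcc
ASF1A: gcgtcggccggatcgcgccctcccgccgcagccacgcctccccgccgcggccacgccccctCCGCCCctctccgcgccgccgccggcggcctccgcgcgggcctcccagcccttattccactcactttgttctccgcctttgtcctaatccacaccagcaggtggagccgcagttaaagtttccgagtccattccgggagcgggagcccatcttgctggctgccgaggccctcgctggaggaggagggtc
The ASF1B window holds the letters CCAAT 3 times on the reverse strand, with first bases 219, 140 and 53 before the start, and then the letters TTTGAA of the cell-cycle homology region (CHR) 27 before it, with 1 GC box (GGGCGG) between them at 43. CHAF1B holds 6 GC boxes and none of the other motifs. POLA2 holds 1 E2F-like match 53 before the start. GINS2 holds an E2F-like match on the reverse strand at 31, a CCAAT at 158 and 7 GC boxes. ASF1A holds 1 GC box at 189 before the start and a CCAAT at 16 after it.

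E2F-like letters (TTTGGCGC, TTTCCCGC, TTTGCCGC or TTTCGCGC) were found in 10 of the 41 windows, which is 24.4%, against 3.3% of all 35116 windows and 4.7% of the 14461 windows of tested genes. The 10 genes were POLA1, POLA2, POLE, POLE2, POLE4, GINS1, GINS2, GINS3, CDC7 and LIG1. Some of them rose with arrest (POLA2, CDC7 and LIG1 in both treatments) and others had no call there in either treatment with all 15 libraries (POLE, POLE2, POLE4, GINS1 and GINS3). The CHR letters were found in windows of DBF4, POLE3 and ASF1B (7.3% of windows, against 15.2% of all and 10.8% of tested genes'). For POLE3 the letters were in window 3 and not in windows 1 or 2. Of these genes DBF4 and POLE3 fell with arrest in DMSO and ASF1B rose, and a link between the letters and these changes was not tested. CCAAT was in 48.8% of the windows (34.6% of all, 34.2% of tested genes'), and the GC box in 70.7% (45.0% and 64.7%). An E2F-like match overlaps GC box letters in CDC7 and LIG1. A match shows only that the letters are there, and windows of 1 gene can overlap.

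**Figure D5:**
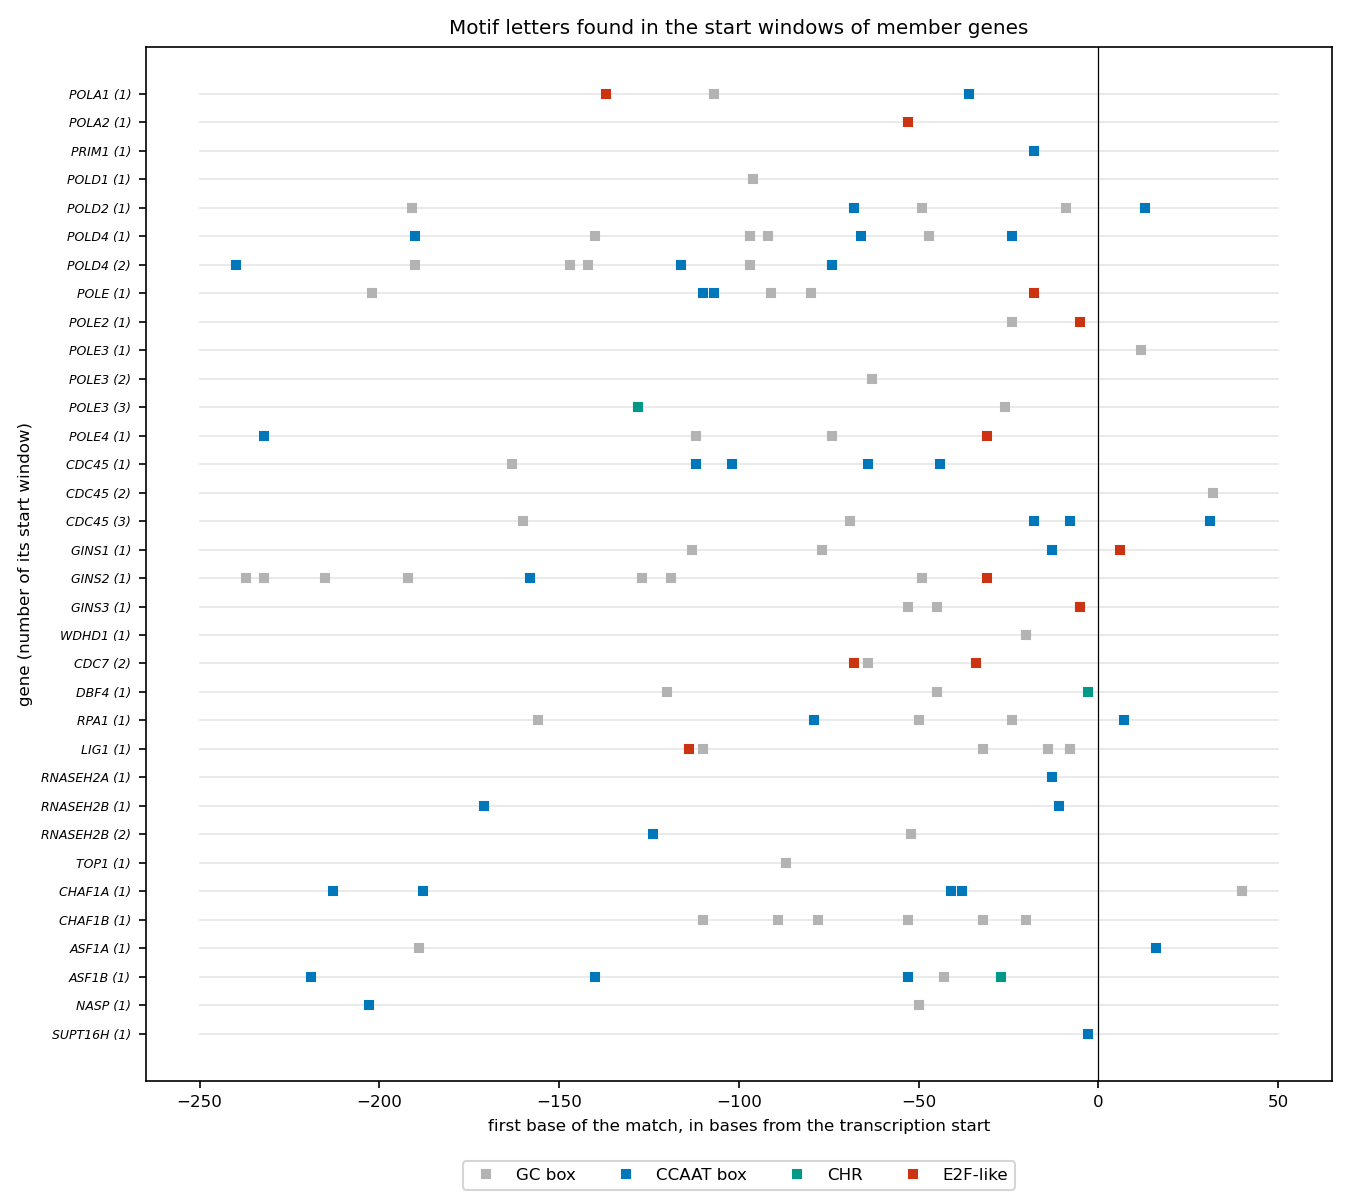
Position of each motif match in the start windows of the genes (rows; the number in brackets is the window of that gene; windows without a match are not drawn), with the x axis in bases from the transcription start at 0. E2F-like matches (red) appear in 10 genes and lie between 137 bases before and 6 after the start, and CHR letters (green) appear in DBF4, POLE3 and ASF1B.

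The 38 other genes of the replication pathway that were listed for comparison are the MCM ring and its loaders, the PCNA clamp with its loaders, fork pausing and firing factors, and replication-independent histone chaperones. With Nutlin in asynchronous cells 8 of them fell, among them ORC1 (-0.55), MCM3 (-0.55), MCM6 (-0.52) and MCM10 (-0.51), and 1 rose: PCNA, the sliding clamp and a known p53 target, by 0.50 ± 0.10 (adjusted p = 0.0155). Of all genes 0.546% fell and 1.91% rose, and with 13 libraries 18 of the 38 fell and 1 rose (2.48% and 3.78% of all genes). With Nutlin in S phase PCNA rose by 0.83 ± 0.11 (adjusted p = 0.000962), and it was the 1 gene called of the 38, with 15 libraries and with 13. In non-released cells limma called 0, and 1 higher with 13 libraries.

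With arrest 9 of these 38 rose and 6 fell in DMSO (16.9% and 17.0% of all genes), and 19 rose and 2 fell in Nutlin (17.3% and 17.2%). CLSPN (0.73 and 0.88) and DONSON (0.70 and 0.82), which act at active forks, rose in both. With 13 libraries 11 rose and 6 fell in DMSO (23.6% and 24.4% of all genes), and 20 rose and 4 fell in Nutlin (25.3% and 24.8%). In S phase 3 rose and 4 fell in DMSO (14.1% and 13.6%), and 15 rose and 3 fell in Nutlin (13.4% and 10.6%). With 13 libraries these were 8 and 3 in DMSO (15.7% and 16.2%) and 22 and 3 in Nutlin (21.8% and 19.4%). Of the 8 replication-independent chaperones 0 rose and 3 fell with arrest in DMSO, where CHAF1B alone of the 2 CAF-1 genes rose. In Nutlin 0 of the 8 rose and 1 fell, and both CAF-1 genes rose, of which the CHAF1A call was lost in 4 single-library omissions as given above.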

How the data were processed

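The authors deposited 1 table of variance-stabilised values on a log2 scale for 23368 genes and 15 libraries. Per the submitters' processing notes, CASAVA 1.8.2, TopHat 0.9, HTSeq, DESeq2 1.10.1 and build hg19 were used, with no role given; annotation and strand are not stated. The transformation, whose lowest value is 4.859, was inverted to give normalised reads. Values were whole reads within 0.05 for 98.96 to 99.98% of genes per library. In DMSO S-phase replicate 3, at 98.96%, nearly all values were multiples of 2 of the smallest step, and 2 steps were taken as 1 read, on which its depth and its reads in voom rest. Differences were tested on the deposited log2 values with limma 3.58.1 in R 4.3.3: 1 mean per group, eBayes with trend (prior degrees of freedom 4.66), two-sided, Benjamini-Hochberg adjustment within each of 12 comparisons over the 14298 genes that exceeded the lowest value by 1 unit in 2 or more libraries. The scripts were tested on simulated data. Alternatives were the compared groups only, other filters, voom with TMM on recovered reads, quantile normalisation, a replicate block, single-library omissions and, added after the data were seen, omission of both libraries that stood apart. Differences of low genes are compressed on this scale. Genes named are the 38 members, with full values for called ones (where over 5, the smallest p) and for partner subunits. The members and lists were chosen with earlier results of these data known. Promoter sequences are from RefSeq; 27 genes' starts were found in a GENCODE transcript.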

Additional observations from a re-analysis of the deposited data

How the results depend on the processing

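Of 1011 values of the 81 named gene results under alternatives, 895 kept their direction and side of the threshold, 111 kept their direction but were no longer called, 1 became called and 4 reversed. The reversed ones were TOP1 with Nutlin in S phase (0.07) and its S-phase minus non-released response (0.14), each without DMSO S-phase replicate 2 and without both libraries that stood apart; without DMSO S-phase replicate 1 they were -0.56 and -0.49. Counts of called genes of the 38 that moved by over 1.5 times were as follows. For Nutlin in asynchronous cells, 2 became 0 with the compared groups only, 1 without a filter, 1 after quantile normalisation and 12 without both libraries. For Nutlin in S phase, 0 became 1 without both. For S-phase against asynchronous cells, 11 became 3 in DMSO with the compared groups only, and 16 became 26 in Nutlin with the compared groups only and 28 without both. For S-phase against non-released cells, 3 became 0 in DMSO with the compared groups only and 1 without a filter, and 0 became 2 in Nutlin without both. The cause was not tested. Fits on the compared groups alone hold fewer samples and take their spread per gene from those libraries only, not from all 15. Leaving out 1 library at a time gave 0 to 4 calls for Nutlin in asynchronous cells, 11 to 18 (DMSO) and 13 to 20 (Nutlin) for non-released, 9 to 14 and 9 to 15 for S-phase against asynchronous cells, 0 to 2 for S-phase against non-released cells in DMSO, and 0 to 0 in the other 6 comparisons.

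With the replicate number as a block, the counts were 2, 16, 12, 3, 20 and 16 for the comparisons with calls (Nutlin in asynchronous cells, then non-released, S-phase against asynchronous and S-phase against non-released in DMSO, then non-released and S-phase in Nutlin), and POLD2 in Nutlin non-released cells and POLD4 in Nutlin S-phase cells lost their calls (adjusted p = 0.0554 and 0.0706; over all alternatives 0.0012 to 0.268 and 0.0109 to 0.169). In their deviations from group means, same-numbered DMSO and Nutlin libraries correlated at 0.313, 0.136 and 0.074 (replicates 1 to 3) in asynchronous cells, 0.325 and 0.325 in non-released and 0.341 and 0.351 in S-phase cells. In a group of 2 libraries the deviations mirror each other, so the non-released values are equal by construction. The S-phase values are not independent either, because the Nutlin group there has 2 libraries. The one value under 0.1 involves DMSO asynchronous replicate 3, which went against its label. Since not every pair exceeded 0.1 and no label ties the numbers to a shared source, the numbers were not taken to pair samples. Depth did not limit detection of these genes: the lowest value was 88 reads.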
